A study of Mus musculus with 18 samples.

Results

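RNA levels of 7 genes, Adss, Adssl1, Adsl, Ampd2, Ampd3, Pnp and Ada, were examined among the 18522 genes of the series. They encode the enzymes that build AMP from IMP with aspartate and the enzymes that take AMP, adenosine and inosine apart. The rows were picked by gene symbol, with no threshold on their values, but results of the comparison between media were known when the symbols were chosen. Differences between media are therefore described for these 7 genes without a test, and tests are given only for changes over time and for other genes of the pathway. These tests are not independent of that choice either, since they use the same libraries and the pathway lists were also made with earlier results known. All 7 genes passed the filter on low counts, as did 14871 genes in all.

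By the sample labels, wild-type naive CD8+ T cells from lymph nodes and spleen of male C57BL/6N mice aged 8 to 12 weeks were activated with antibodies against CD3 and CD28 bound to the plate. The cells were kept for 4, 24 or 72 h in medium without Asn (Asn restriction) or in complete medium (control), and each of these 6 groups has 3 libraries. The libraries of a group are described as experimental replicates of 1 experiment, and nothing in the labels ties them to separate animals or cultures. P-values thus measure only the spread between libraries, which may be technical.

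Total counts ran between 11576889 and 22172185 per library, with a median of 18239124.5. The summed level of 9 CD8 T cell markers was 1634 to 2176 CPM (counts scaled to library size) in every library, against 35.8 to 152 CPM for 5 CD4 and regulatory T cell markers, 29.5 to 99.9 CPM for 9 B cell markers, 8.58 to 106 CPM for 6 NK and gamma-delta T cell markers and 15.8 to 59.6 CPM for 10 myeloid and dendritic cell markers. Erythroid and platelet markers (8 of 10 in the table) summed to 0.785 to 9.42 CPM, and muscle and stromal cell markers (6 of 9 in the table, led by Pecam1) to 9.83 to 30.9 CPM. In every group Itga2b led the erythroid and platelet markers, and Cst3 the myeloid and dendritic cell markers. Control 72 h replicate 2 stood apart from the other libraries of its group, with the fewest counts of all libraries, and mitochondrial genes took 0.439% of them, where no other library had under 0.741%. Of the 21 sums (7 lists at 3 times), 7 were higher and 8 lower in restricted libraries without overlap, and 6 overlapped. The CD4 and regulatory T cell sum (led by Ikzf2 or Zbtb7b) was 82.1 to 94.0 CPM in restricted and 48.5 to 55.9 CPM in control libraries at 4 h, 55.5 to 62.2 and 35.8 to 38.7 CPM in the same order at 24 h, and 78.6 to 84.8 and 146 to 152 CPM at 72 h. At 24 h the B cell sum (mostly Ighm) was 48.5 to 54.5 CPM in restricted and 88.7 to 99.9 CPM in control libraries, and the NK and gamma-delta sum (mostly Eomes) was 103 to 106 CPM in restricted and 66.7 to 67.7 CPM in control libraries. At 24 h the erythroid and platelet sum was 5.30 to 7.53 CPM in restricted and 0.785 to 1.98 CPM in control libraries. It was mostly Itga2b, with means of 5.16 and 0.971 CPM in the same order. The CD8 T cell sum itself was 1990 to 2040 CPM in restricted and 2128 to 2176 CPM in control libraries at 4 h, and 1634 to 1670 and 1862 to 1914 CPM in the same order at 72 h. Several of these sums rested mostly on a single gene, so they do not measure the share of a cell type. The part of the marker sums in the results below was not tested. The 72 h log2 fold changes of the 7 genes between media are given below with and without control 72 h replicate 2. Most other values that use this library, such as ratios, correlations, pathway gene levels and most changes over time, are given only with it. Asns, the synthetase that makes Asn from aspartate, rose under Asn restriction at 4, 24 and 72 h, by 1.41, 0.70 and 0.58 on the log2 scale (edgeR adjusted p = 8.72e-18, 4.52e-12 and 6.04e-11).

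IMP, the first complete purine nucleotide, stands at a branch point. Adenylosuccinate synthetase (Adss and its muscle-type form Adssl1) joins aspartate to IMP, adenylosuccinate lyase (Adsl) releases fumarate and leaves AMP, and AMP deaminase (Ampd2, Ampd3 and the muscle form Ampd1) turns AMP back into IMP. These steps together are known as the purine nucleotide cycle, which uses aspartate, the amino acid from which cells also make Asn. Adenosine deaminase (Ada) and purine nucleoside phosphorylase (Pnp) act on the nucleosides further down, and inherited loss of either enzyme in humans is a known cause of severe T cell deficiency.

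The 7 genes lie apart in the genome (GRCm38, GENCODE M21 annotation): Adss on chromosome 1 from 177762962 to 177796511, Ada on chromosome 2 from 163726584 to 163750239, Ampd2 on chromosome 3 from 108074062 to 108086651, Ampd3 on chromosome 7 from 110768206 to 110812405, Adssl1 on chromosome 12 from 112620045 to 112641360, Pnp on chromosome 14 from 50931082 to 50965237 and Adsl on chromosome 15 from 80948490 to 80970946. The counts of Pnp carry some uncertainty. Its annotated span includes Pnp2, a neighbour on the same strand with partly shared sequence. Of the stretches of 31 bases in Pnp transcripts, 15.2% also occur in Pnp2 transcripts, and 38.3% of those in Pnp2 transcripts occur in Pnp transcripts. Pnp2 had 0 to 21 counts per library. Pnp also shares 718 exon bases with Gm49342, which was not analysed here. Adss and Adssl1 transcripts share no stretch of 31 bases, and neither do those of Ampd2 and Ampd3, while Ampd2 shares 4 such stretches with Ampd1. Ampd2 shares 434 of its exon bases with the antisense gene Gm12500, which had 0 to 9 counts per library. Ampd3 shares 195 exon bases with Rnf141 on the other strand, which had 81 to 388 counts, more than Ampd3 itself. Whether counting used strand is not given in the sources used here, so reads in these shared stretches cannot be assigned.

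Sequences just before the transcription start are shown for both synthetase genes, whose levels differed between media in opposite directions at 72 h, and for Adsl and Pnp. The media differences of Adsl and Pnp had the sign of that of Adss at 24 and 72 h, as did those of Ampd2 and Ada. Each is the stretch of 250 bases before the RefSeq start (GRCm38.p6), read 5′ to 3′ on the strand of the gene, with every CG dinucleotide in capitals. Adss is at chr1:177796510-177796759 (minus strand), Adssl1 at chr12:112619797-112620046 (plus strand), Adsl at chr15:80948240-80948489 (plus strand) and Pnp at chr14:50944053-50944302 (plus strand).
Adss: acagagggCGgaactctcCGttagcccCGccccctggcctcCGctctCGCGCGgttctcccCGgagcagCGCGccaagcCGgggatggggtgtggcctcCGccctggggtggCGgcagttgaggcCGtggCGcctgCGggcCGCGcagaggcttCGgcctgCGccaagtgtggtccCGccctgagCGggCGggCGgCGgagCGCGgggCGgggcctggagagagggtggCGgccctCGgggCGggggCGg
Adssl1: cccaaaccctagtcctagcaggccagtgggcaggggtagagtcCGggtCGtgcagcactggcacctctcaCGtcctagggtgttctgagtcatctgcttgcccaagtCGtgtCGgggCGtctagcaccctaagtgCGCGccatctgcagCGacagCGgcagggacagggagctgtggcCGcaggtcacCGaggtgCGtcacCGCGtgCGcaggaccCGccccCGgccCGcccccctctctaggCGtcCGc
Adsl: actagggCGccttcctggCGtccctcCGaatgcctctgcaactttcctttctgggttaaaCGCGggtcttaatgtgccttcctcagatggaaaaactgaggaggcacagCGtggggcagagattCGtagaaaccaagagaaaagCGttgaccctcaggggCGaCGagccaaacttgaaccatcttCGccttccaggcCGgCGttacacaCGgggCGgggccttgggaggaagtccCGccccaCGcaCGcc
Pnp: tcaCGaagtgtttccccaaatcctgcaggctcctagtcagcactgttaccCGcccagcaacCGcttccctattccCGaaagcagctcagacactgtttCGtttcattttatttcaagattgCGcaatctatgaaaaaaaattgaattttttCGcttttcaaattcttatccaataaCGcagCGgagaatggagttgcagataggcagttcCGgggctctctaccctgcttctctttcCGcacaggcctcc
The Adss stretch holds 32 CG dinucleotides and a GC share of 78.8%, the Adssl1 stretch 21 and 68.4%, the Adsl stretch 18 and 59.2% and the Pnp stretch 11 and 46.8%. Among 32841 RefSeq promoters of the same length the median was 6 CG dinucleotides and 52.4% GC, and 95.4% of them held fewer CG dinucleotides than that of Adss. All 7 genes had a RefSeq promoter entry, 10 entries in all. They were searched on both strands for the E-box CACGTG, the antioxidant response element core TGACNNNGC, the ATF4 element TGATGNAA, the cyclic AMP response element TGACGTCA, the NRF1 element, the CCAAT box and the TATA box TATAAA. The E-box was found in 1 of the entries of Ampd3 and occurs in 6.02% of all promoters. A CCAAT box was found in Pnp, Ada and other entries of Ampd3, and in 33.9% of all promoters. The remaining 5 motifs had no match in any entry, against 10.2, 3.45, 1.55, 3.74 and 12.4% of all promoters in the order given above, the CCAAT box left aside. A match here is a match of letters only.

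The 7 genes differed widely in level. Per kilobase of gene length, the scale on which genes can be set side by side, the mean over the 18 libraries was 88.9 CPM per kilobase for Adss and 44.1 for Adsl. It was 21.6 for Ampd2, 1.41 for Adssl1 and 0.111 for Ampd3, and Pnp and Ada lay close together at 4.83 and 4.95. The plot of levels by library shows all values in CPM.

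**Figure D1:**
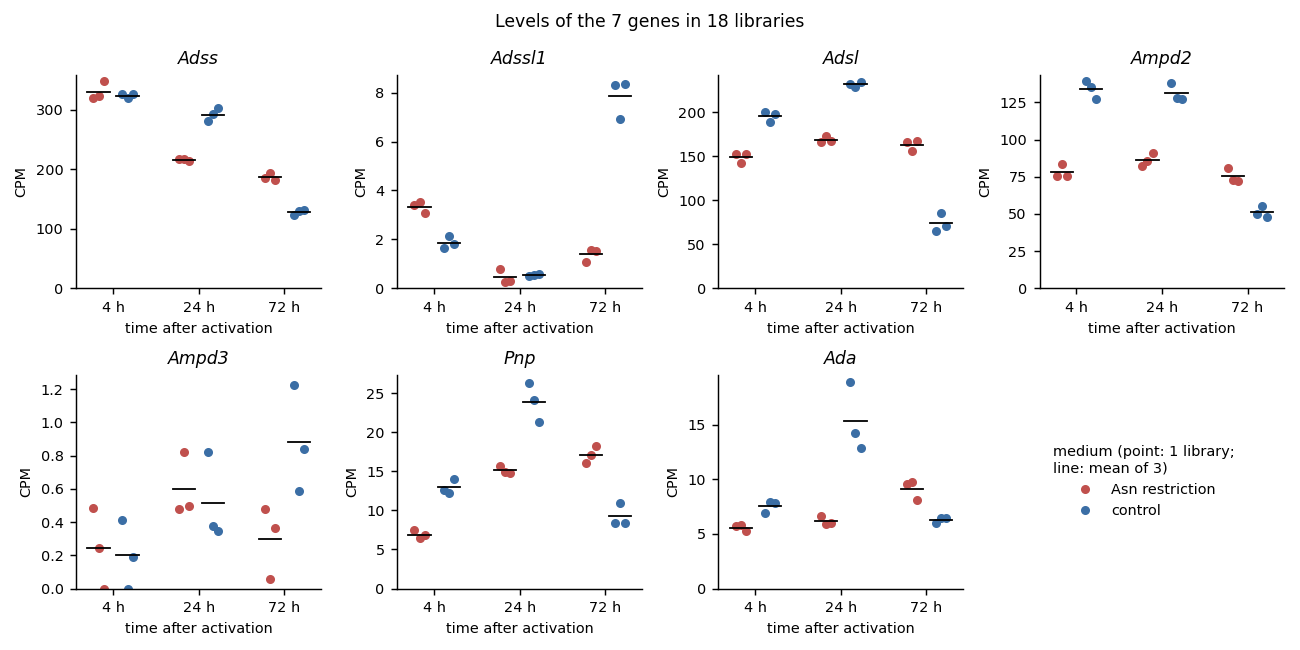
CPM after TMM scaling (y axis, linear, from 0) by time after activation for each of the 7 genes, with 1 point per library, Asn restriction in red left of control in blue, and a line at the mean of 3 libraries. For Adss, Adsl, Ampd2, Pnp and Ada all red points lie under all blue points at 24 h and above them at 72 h; Adssl1 stands out at 72 h, at 6.94 to 8.34 CPM in control.

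Adss, the synthetase gene with by far the higher level, did not separate the media at 4 h. Its level was 321, 323 and 348 CPM under Asn restriction, against 326, 320 and 326 CPM in control (log2 fold change 0.03, standard error 0.045). The libraries overlapped, and the sign of this value turned with total-count or spike-in scaling (-0.09 and -0.11). At 24 h it was 218, 217 and 213 CPM under Asn restriction, against 281, 292 and 303 CPM in control. Every restricted library lay under every control library (log2 fold change -0.43, standard error 0.045). At 72 h the order was the opposite, with 185, 193 and 181 CPM in restricted cells and 124, 130 and 131 CPM in control cells (log2 fold change 0.54, standard error 0.047; 0.55 without control 72 h replicate 2). Ordered by group mean, Adss was highest in both 4 h groups, whose libraries overlapped, then in control at 24 h, under restriction at 24 h, under restriction at 72 h and in control at 72 h, and each of these later neighbours was separated without overlap. This separation holds for TMM scaling. Control libraries at 4 and 24 h overlapped with total-count and with spike-in scaling, and restricted libraries at 24 and 72 h overlapped with spike-in scaling.

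Adssl1, the form of the synthetase best known from muscle, followed another course. At 4 h it was at 3.39, 3.54 and 3.08 CPM under Asn restriction, against 1.64, 2.14 and 1.82 CPM in control (log2 fold change 0.85, standard error 0.27). At 24 h it had 18, 4 and 6 counts, or 0.788, 0.235 and 0.297 CPM, under Asn restriction and 10, 10 and 12 counts, or 0.483, 0.535 and 0.589 CPM, in control. The media overlapped there, because the first restricted library lay above all the others and the remaining ones below all control libraries (log2 fold change -0.21, standard error 0.41; -0.97 without Asn restriction 24 h replicate 1). At 72 h it was 1.09, 1.56 and 1.51 CPM in restricted cells and 8.29, 6.94 and 8.34 CPM in control cells. All control libraries at 72 h were above every other library of the series. The log2 fold change was -2.49 (standard error 0.26; -2.57 without control 72 h replicate 2). Muscle and stromal cell markers overlapped between the media at 72 h, with a summed level of 10.4 to 11.5 CPM in restricted and 9.83 to 11.8 CPM in control libraries, and 2 of 6 at 0 in all restricted libraries against 1 of 6 in all control libraries. Pecam1 alone had a mean of 9.78 CPM in restricted and 7.24 CPM in control libraries at 72 h. The overlap of the sum therefore says little about the other markers of this list, whose part was not tested. At 24 h the sum was 22.4 to 23.8 CPM in restricted and 15.0 to 17.4 CPM in control libraries, without overlap, and again mostly Pecam1 (means 22.8 and 15.9 CPM).

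The balance between the synthetase genes changed accordingly. Per kilobase, Adssl1 made up 1.52 ± 0.166% of the summed level of Adss and Adssl1 under Asn restriction and 0.871 ± 0.127% in control at 4 h (SD, n = 3 each, as for all later values with an SD). At 24 h the share was 0.308 ± 0.209% under Asn restriction and 0.278 ± 0.0167% in control. At 72 h it was 0.886, 1.21 and 1.25% in the restricted libraries, against 9.25, 7.53 and 8.81% in the control libraries. Adss thus remained the main transcript in every library. Both genes are read from the same library, so the scaling between libraries does not enter this share.

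**Figure D2:**
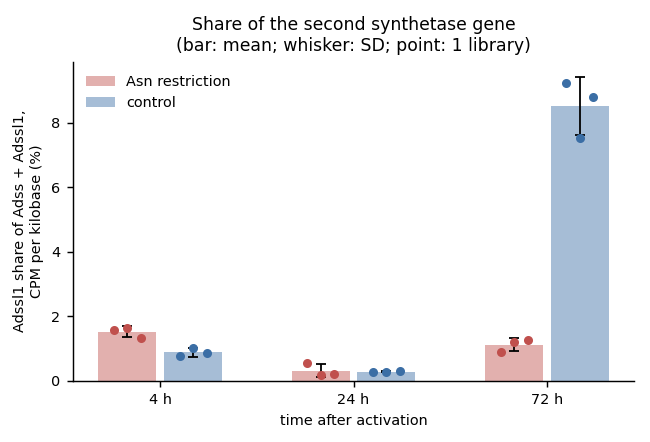
Share of Adssl1 in the summed level of Adss and Adssl1, both in CPM per kilobase (y axis, percent, from 0), by time after activation; bars are means of 3 libraries, whiskers SDs and points single libraries, with Asn restriction left of control. The 72 h control libraries lie between 7.53 and 9.25%, and all other libraries at or below 1.64%.

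Adsl, the lyase that acts after the synthetase and also earlier on the route to IMP, was lower under Asn restriction at both early times. At 4 h it was 152, 143 and 153 CPM under Asn restriction, against 201, 189 and 199 CPM in control (log2 fold change -0.39, standard error 0.060). After 24 h it was 167, 173 and 167 CPM in restricted cells and 232, 229 and 235 CPM in control cells (log2 fold change -0.46, standard error 0.059). At 72 h the restricted cells were at 166, 157 and 167 CPM and the control cells at 65.5, 85.5 and 70.6 CPM. The restricted level was thus within 143 and 173 CPM in all 9 libraries, while the control level was at its lowest at 72 h. This narrow range holds for TMM scaling. With total-count scaling the restricted level changed by 0.51 between 4 and 24 h and by -0.23 between 24 and 72 h on the log2 scale, and both passed (edgeR adjusted p = 5.12e-09 and 0.000716). The 72 h log2 fold change of 1.15 (standard error 0.063) was the largest upward one among the 7 genes at that time, and it was 1.27 without control 72 h replicate 2, the control library with the highest Adsl level.

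Ampd2 was nearly the sole AMP deaminase gene in these cells. Per kilobase it made up 97.2% or more of the summed level of Ampd1, Ampd2 and Ampd3 in every library. At 4 h it was 75.4, 83.3 and 75.8 CPM under Asn restriction, against 139, 135 and 127 CPM in control (log2 fold change -0.78, standard error 0.062). By 24 h it was 82.5, 85.5 and 90.9 CPM in restricted cells and 138, 128 and 128 CPM in control cells (log2 fold change -0.60, standard error 0.061). By 72 h it was 80.7, 73.0 and 72.2 CPM in restricted cells and 50.2, 55.2 and 48.2 CPM in control cells (log2 fold change 0.56, standard error 0.066; 0.61 without control 72 h replicate 2). The media did not overlap at any time, and the 9 restricted libraries lay within 72.2 and 90.9 CPM. This range, too, holds for TMM scaling. With total-count scaling the restricted level changed by 0.47 between 4 and 24 h and by -0.38 between 24 and 72 h on the log2 scale (edgeR adjusted p = 8.64e-08 and 3.3e-06). With spike-in scaling these changes were 0.67 and -0.18 (edgeR adjusted p = 0.00187 and 0.456).

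Ampd3, a deaminase form known from erythrocytes, was close to the limit of detection. It had 9, 4 and 0 counts under Asn restriction and 7, 0 and 4 in control at 4 h, 11, 14 and 10 under Asn restriction and 17, 7 and 7 in control at 24 h, and 7, 1 and 7 under Asn restriction and 22, 7 and 14 in control at 72 h. A library with 0 counts allows up to 0.196 CPM (Asn restriction 4 h replicate 3) or 0.268 CPM (control 4 h replicate 2), the level of 3 counts, and this limit covers counting error only. At 72 h it was 0.476, 0.0577 and 0.363 CPM under Asn restriction, against 1.22, 0.585 and 0.840 CPM in control (log2 fold change -1.59, standard error 0.70; -1.79 without control 72 h replicate 2). The 72 h libraries of the media did not overlap, but 1 restricted library rests on 1 count. At this depth no difference in Ampd3 could be told at 4 and 24 h.

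The nucleoside enzymes showed the same order of media as Adsl and Ampd2 at each time. Pnp, which splits inosine and guanosine into base and sugar phosphate, was 7.48, 6.40 and 6.81 CPM in restricted cells and 12.7, 12.2 and 14.1 CPM in control cells at 4 h (log2 fold change -0.92, standard error 0.13). After 24 h it was 15.7, 14.9 and 14.8 CPM in restricted cells and 26.3, 24.1 and 21.3 CPM in control cells (log2 fold change -0.66, standard error 0.11). After 72 h it was 16.1, 17.1 and 18.3 CPM in restricted cells and 8.35, 10.9 and 8.40 CPM in control cells. All restricted libraries were then above all control libraries, with a log2 fold change of 0.91 (standard error 0.12; 1.04 without control 72 h replicate 2). Pnp2 took 0 to 5.81% of the summed level of Pnp and Pnp2 per kilobase in restricted libraries at 4 h and 0 to 7.26% in control libraries. Pnp2 itself was lower under Asn restriction than in control at 24 h, on 15 or fewer counts per library (edgeR adjusted p = 0.0219). It took 0 to 1.66% in restricted and 1.46 to 5.56% in control libraries at 24 h, and 3.50 to 16.0% in restricted and 4.11 to 17.7% in control libraries at 72 h.

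Ada, which turns adenosine and deoxyadenosine into inosine and deoxyinosine, was 5.70, 5.79 and 5.23 CPM in restricted cells and 6.92, 7.94 and 7.85 CPM in control cells at 4 h (log2 fold change -0.44, standard error 0.16). At 24 h it was 6.61, 5.88 and 6.04 CPM under Asn restriction, against 18.9, 14.2 and 12.9 CPM in control. This was the largest 24 h difference among the 7 genes, and the first control library was well above the others of its group (log2 fold change -1.31, standard error 0.14). By 72 h it was 9.59, 9.75 and 8.10 CPM in restricted cells and 6.01, 6.44 and 6.48 CPM in control cells (log2 fold change 0.53, standard error 0.15; 0.55 without control 72 h replicate 2). The libraries of the media did not overlap at any of the 3 times.

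**Figure D3:**
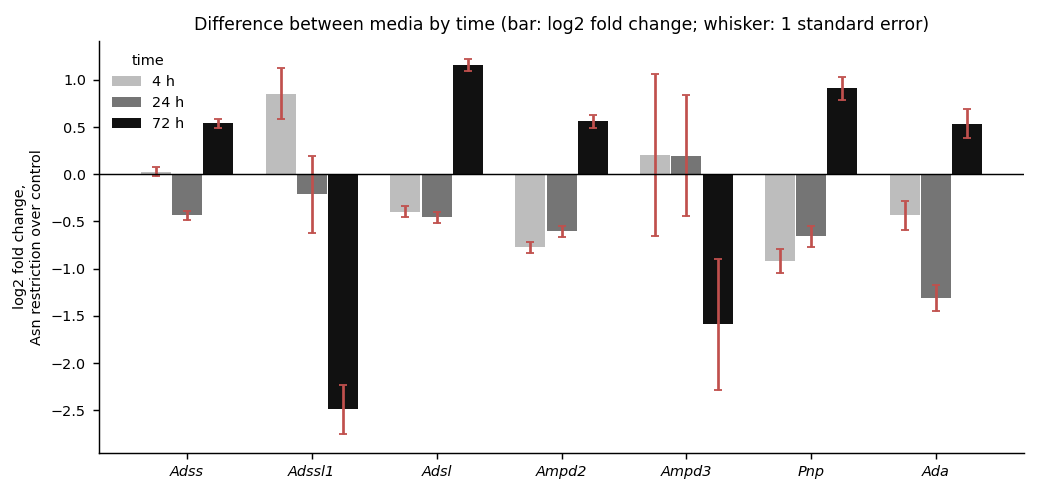
Log2 fold change of Asn restriction over control (y axis) for the 7 genes at 4, 24 and 72 h (light to dark bars), with whiskers of 1 standard error from the fit of all genes. Adss, Adsl, Ampd2, Pnp and Ada have negative bars at 24 h and positive bars at 72 h, Adssl1 has its lowest bar at 72 h (-2.49), and the bars of Ampd3 rest on 22 or fewer counts per library.

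At 4 h, 1 of the 7 genes was higher and 4 were lower under Asn restriction with no overlap between libraries, where 28.9% of all genes were higher and 25.7% lower in this sense. At 24 h, 5 were lower and 0 higher (30.8% of all genes lower, 30.5% higher), but Ampd3 was higher without overlap when control 24 h replicate 1 was left out, and Adssl1 lower when Asn restriction 24 h replicate 1 was. At 72 h, 5 were higher and 2 lower (27.2% of all genes higher, 26.4% lower). The median log2 fold change of the 7 genes was -0.39, -0.46 and 0.54 at 4, 24 and 72 h, beside 0.02, 0.01 and -0.01 for all genes tested. Adss, Adsl, Ampd2, Pnp and Ada were lower at 24 h and higher at 72 h without overlap, as were 14.9% of all genes. Their effect at 72 h exceeded that at 24 h by 0.98 (standard error 0.065) for Adss, 1.61 (0.086) for Adsl, 1.16 (0.090) for Ampd2, 1.57 (0.16) for Pnp and 1.84 (0.21) for Ada on the log2 scale. Adssl1 was higher at 4 h and lower at 72 h without overlap, as were 9.33% of all genes. Counting any pair of times and either direction, 6 of the 7 genes and 34.2% of all genes lay on opposite sides without overlap. These are the contrasts that were in view when the genes were chosen, so the counts are given as a description.

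The course over time within each medium was tested with edgeR. The libraries are those of the media contrasts in view when the genes were chosen, so the directions over time are not independent of that choice. In control cells 5 of the 7 genes fell and 1 rose between 24 and 72 h, where 35.1% of all genes fell and 35.7% rose. Adsl fell by 1.66 in log2 units (standard error 0.063, edgeR adjusted p = 9.80e-21), Adss by 1.19 (standard error 0.047) and Ampd2 by 1.36 (standard error 0.065). Pnp fell by 1.39 (standard error 0.12) and Ada by 1.28 (standard error 0.14, edgeR adjusted p = 2.51e-09). Adssl1 rose by 3.86 (standard error 0.30, edgeR adjusted p = 4.39e-13), to a level 14.5-fold that at 24 h. Without control 72 h replicate 2 the same counts of 5 and 1 were found, and Adsl fell by 1.77 there. The change of Ampd3 with all libraries did not pass (log2 fold change 0.80, edgeR adjusted p = 0.26).

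In restricted cells the changes over the same interval were smaller in size for 6 of the 7 genes, and 2 fell and 2 rose, where 35.5% of all genes fell and 35.3% rose. Adss fell by 0.21 (standard error 0.046, edgeR adjusted p = 0.000153) and Ampd2 by 0.20 (standard error 0.063, edgeR adjusted p = 0.00604), although neither passed with spike-in scaling. Adssl1 rose by 1.58 (standard error 0.36) and Ada by 0.56 (standard error 0.15, edgeR adjusted p = 0.00128). Adsl, with a log2 change of -0.05, and Pnp, with 0.18, did not pass (edgeR adjusted p = 0.47 and 0.151), and neither did Ampd3 (edgeR adjusted p = 0.215). With total-count scaling Adsl fell by 0.23 and passed (edgeR adjusted p = 0.000716). The difference between the media in these changes is the contrast described above and was not tested.

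Between 4 and 24 h, 3 of the 7 genes rose and 2 fell in restricted cells (34.9% of all genes rose, 30.9% fell), and 3 rose and 2 fell in control cells (34.9% rose, 34.7% fell). Pnp rose by 1.13 in restricted cells (standard error 0.12, edgeR adjusted p = 1.90e-09) and by 0.87 in control cells (standard error 0.11, edgeR adjusted p = 4.30e-08). Adssl1 fell by 2.84 in restricted cells (standard error 0.32) and fell by 1.77 in control cells (standard error 0.34). Adss fell by 0.61 in restricted cells (standard error 0.045, edgeR adjusted p = 2.09e-13) and fell by 0.15 in control cells (standard error 0.045, edgeR adjusted p = 0.00386), and both calls were lost with spike-in scaling. Ada rose by 1.02 in control cells (standard error 0.14, edgeR adjusted p = 1.43e-07) and had a log2 change of 0.15 in restricted cells (edgeR adjusted p = 0.413). In restricted cells the change of Ada was 0.48 with total-count and 0.68 with spike-in scaling, and both passed (edgeR adjusted p = 0.00777 and 0.0143). Adsl rose by 0.18 in restricted cells (edgeR adjusted p = 0.00988) and by 0.24 in control cells (edgeR adjusted p = 0.000641, but 0.077 with spike-in scaling). The change of Ampd2 was 0.14 in restricted cells, where the libraries overlapped (edgeR adjusted p = 0.0456), and -0.03 in control cells (edgeR adjusted p = 0.69). Without Asn restriction 24 h replicate 2 the calls of Adsl and Ampd2 in restricted cells did not pass and the count of 3 became 1. In restricted cells over this interval, total-count and spike-in scaling moved the median of all genes by 0.36 and 0.56, so that 7216 genes rose and 2708 fell with the first and 6980 rose and 1134 fell with the second, against 5190 and 4594 with TMM.

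**Figure D4:**
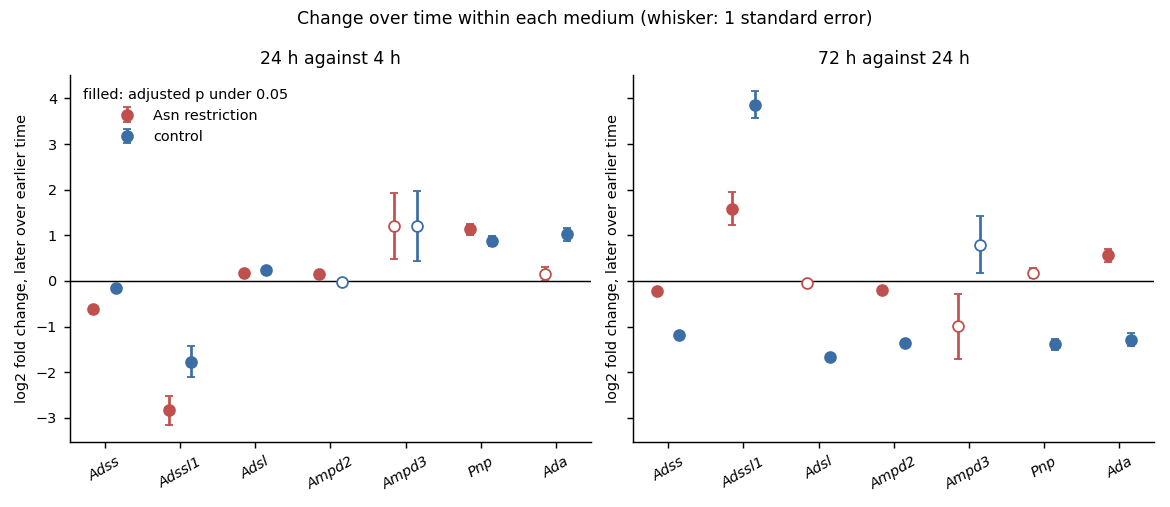
Log2 fold change of the later over the earlier time (y axis) within restricted cells (red) and control cells (blue) for the 7 genes, at left 24 h against 4 h and at right 72 h against 24 h, with whiskers of 1 standard error; filled points passed an adjusted p of 0.05. In the right panel the control points of Adss, Adsl, Ampd2, Pnp and Ada lie between -1.66 and -1.19 and that of Adssl1 at 3.86.

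The relative levels of consecutive enzymes shifted too. Per kilobase, the level of Ampd2 over that of Adss was 0.153 ± 0.0129 under Asn restriction and 0.267 ± 0.0133 in control at 4 h. At 24 h it was 0.258 ± 0.0156 under Asn restriction and 0.291 ± 0.0246 in control, and at 72 h 0.261 ± 0.0188 and 0.258 ± 0.0192 in the same order. The ratio of Adsl to Adss was 0.337 ± 0.0153 under Asn restriction and 0.452 ± 0.00970 in control at 4 h, and at 24 h it was 0.584 ± 0.0123 under Asn restriction and 0.593 ± 0.0210 in control, with overlap. At 72 h it was 0.654 ± 0.0435 under Asn restriction and 0.429 ± 0.0544 in control. The ratio of Ampd2 to Adsl was 0.454 ± 0.0437 under Asn restriction and 0.591 ± 0.0337 in control at 4 h, 0.442 ± 0.0249 and 0.490 ± 0.0238 in the same order at 24 h, and 0.399 ± 0.0230 and 0.604 ± 0.0532 at 72 h. At 4 h the libraries of the media did not overlap in any of these ratios, and at 72 h not in those of Adsl to Adss and Ampd2 to Adsl.

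The genes whose pattern over the 18 libraries was most like that of each gene were sought among those that reached 10 CPM on average in some group. All of these correlations are over libraries that share 6 group means, and they are given as a description. Chchd4 (Pearson r 0.99), Mtap (0.98) and Xrn2 (0.98) were most like Adss. Mtap encodes the phosphorylase that releases adenine from methylthioadenosine. For Adsl the nearest were Eif2b5 (0.99), Eef1d (0.99) and Eif6 (0.99), all genes of translation factors. For Ampd2 they were Bzw2 (0.99), Cad (0.99), which encodes the aspartate-using enzyme that opens pyrimidine synthesis, and Fasn (0.98), the fatty acid synthase. Pnp was nearest to Dpp3 (0.98), Fkbp4 (0.98) and Lsm3 (0.97), and Ada to Ddx19a (0.95), Usp1 (0.93) and Pdcd5 (0.92). Ampd3 had no gene above 0.75. Among the 7 genes themselves r was 0.90 for Adsl and Ampd2, 0.83 for Pnp and Ada, 0.06 for Adss and Pnp and -0.79 for Adssl1 and Adsl.

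Other genes of the pathway were taken from 5 lists made by function, which hold 76 genes, 70 of them in the table and 65 tested. The lists leave out the 7 genes above, but were made with earlier results of these data known, so their counts are not independent evidence of a direction. For these lists, rose and fell mean higher and lower under Asn restriction than in control at the same time, not a change over time. Of the 65, 16 rose and 31 fell under Asn restriction at 4 h (edgeR adjusted p under 0.05, as called for 23.6% of all genes upward and 22.0% downward), 9 rose and 43 fell at 24 h (27.5% of all genes upward, 28.0% downward) and 37 rose and 13 fell at 72 h (25.4% upward, 23.8% downward). With libraries scaled by the spike-ins the counts were 5 and 21 at 4 h, 8 and 13 at 24 h and 37 and 3 at 72 h. That scaling moved the median of all genes by -0.11, 0.25 and 0.31 at the 3 times, and over all genes it gave 942 that rose and 2122 that fell at 4 h, 3790 and 1099 at 24 h, and 4239 and 754 at 72 h.

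Among the genes that make IMP and GMP, of 12 tested, 10 fell at 4 h and 11 at 24 h, and 11 rose at 72 h, with none in the other direction at any of these times. The median log2 fold change was -0.72, -0.62 and 0.87 at 4, 24 and 72 h, beside 0.02, 0.01 and -0.01 for all genes. Over the alternatives tried, 7 to 12 fell at 4 h, 3 to 11 fell at 24 h and 10 or 11 rose at 72 h. Prps2, a PRPP synthetase, was 58.2 ± 3.98 CPM in restricted cells and 96.1 ± 5.16 CPM in control cells at 24 h (log2 fold change -0.72, edgeR adjusted p = 2.35e-10), and Guk1, the GMP kinase, fell by 1.06 at 4 h (edgeR adjusted p = 2.43e-11). Paics, an enzyme midway to IMP, was 202 ± 7.44 CPM in restricted cells and 381 ± 10.7 CPM in control cells at 24 h (log2 fold change -0.92, edgeR adjusted p = 6.35e-17). Pfas, another enzyme of this route, was 245 ± 5.16 CPM in restricted cells and 99.7 ± 13.5 CPM in control cells at 72 h (log2 fold change 1.30, edgeR adjusted p = 1.26e-17), and Gart, which acts on the same route, rose by 1.61 (edgeR adjusted p = 6.20e-23). Mean Gart was 357 CPM at 24 h and 303 CPM at 72 h in restricted cells, and 586 and 99.5 CPM in control cells. Mean Paics was 202 and 373 CPM in restricted cells at these times, and 381 and 218 CPM in control cells.

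Genes of other enzymes of AMP, adenosine and inosine were more mixed. Of 25 tested, 5 rose and 9 fell at 4 h, 3 rose and 17 fell at 24 h, and 11 rose and 5 fell at 72 h, with median log2 fold changes of -0.26, -0.51 and 0.36. Over the alternatives, 1 to 5 rose at 4 h and 6 to 17 fell at 24 h. Nt5e encodes CD73, the enzyme at the cell surface that makes adenosine from AMP. It was 57.1 ± 2.45 CPM in restricted cells and 15.3 ± 2.90 CPM in control cells at 4 h (log2 fold change 1.88, edgeR adjusted p = 1.39e-13), and 13.8 ± 0.103 CPM and 5.89 ± 1.64 CPM in the same order at 24 h (log2 fold change 1.22, edgeR adjusted p = 3.40e-08). At 72 h it was 0.989 ± 0.359 CPM under Asn restriction, against 4.03 ± 0.365 CPM in control (log2 fold change -1.99, edgeR adjusted p = 1.29e-07). Entpd1, which encodes CD39, the enzyme that supplies CD73 with AMP, rose at 4 and 24 h by 0.82 and 1.31 (edgeR adjusted p = 0.0325 and 0.000839), at levels of 1.83 ± 0.573 CPM or less. Ak4, a mitochondrial adenylate kinase, fell by 1.14 at 4 h and by 2.71 at 24 h, and rose by 1.63 at 72 h, when it was 47.9 ± 2.47 CPM in restricted cells and 15.6 ± 1.03 CPM in control cells. Adk, the kinase that returns adenosine to AMP, was 51.4 ± 3.17 CPM in restricted cells and 20.5 ± 1.71 CPM in control cells at 72 h (log2 fold change 1.33, edgeR adjusted p = 4.09e-15). At 24 h it was 50.6 ± 2.74 and 88.9 ± 4.62 CPM in the same order (log2 fold change -0.81, edgeR adjusted p = 1.18e-11). Of the deoxynucleoside kinases, Dck fell by 1.12 at 24 h (edgeR adjusted p = 7.55e-13) and rose by 0.41 at 72 h (edgeR adjusted p = 0.000107). Dguok rose by 0.50 at 4 h and by 0.68 at 24 h (edgeR adjusted p = 0.00755 and 0.000113) and fell by 1.56 at 72 h (edgeR adjusted p = 2.83e-11). Ak3, the GTP-AMP kinase of mitochondria, fell at all 3 times, by 0.83 at 4 h.

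Among 16 genes of aspartate and fumarate enzymes, 5 rose and 8 fell at 4 h, 2 rose and 11 fell at 24 h, and 12 rose and 2 fell at 72 h, with median log2 fold changes of -0.23, -0.51 and 0.46. Over the alternatives, 2 to 5 rose at 4 h, 4 to 11 fell at 24 h and 0 to 2 fell at 72 h. Asns is one of those that rose. Nars, the ligase that loads Asn onto its transfer RNA, was 1545 ± 33.7 CPM in restricted cells and 833 ± 18.6 CPM in control cells at 4 h (log2 fold change 0.89, edgeR adjusted p = 9.98e-18) and rose by 0.50 at 24 h. Cad fell by 1.08 at 4 h (edgeR adjusted p = 5.10e-17) and rose by 0.93 at 72 h. Slc25a13, a mitochondrial carrier that exports aspartate, fell by 1.07 at 4 h and by 1.08 at 24 h and rose by 0.89 at 72 h. Ass1, which joins aspartate to citrulline, was 37.6 ± 0.117 CPM under Asn restriction, against 75.5 ± 0.983 CPM in control at 24 h (edgeR adjusted p = 2.56e-12). At 4 h it was 19.5 ± 2.87 and 38.3 ± 2.56 CPM in the same order (log2 fold change -0.98). The log2 fold change of Ass1 at 72 h was 0.48. Fh1, the fumarase, fell by 0.48 at 4 h and by 0.71 at 24 h and rose by 0.96 at 72 h (edgeR adjusted p = 6.28e-08, 3.25e-12 and 1.21e-14). Asrgl1, which can cleave Asn, fell by 0.65 at 72 h (edgeR adjusted p = 3.12e-07) and Slc25a12, the sister carrier of Slc25a13, by 0.17 (edgeR adjusted p = 0.0376).

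In the list of adenosine transport and signalling 7 genes were tested, and 3 rose and 3 fell at 4 h, 3 rose and 2 fell at 24 h, and 2 rose and 4 fell at 72 h. The median log2 fold changes were 0.26, 0.08 and -0.44. Over the alternatives, 0 to 3 fell at 24 h and 0 to 4 fell at 72 h. Adora2a, which encodes the main adenosine receptor of T cells, was 176 ± 4.77 CPM in restricted cells and 81.4 ± 6.20 CPM in control cells at 4 h (log2 fold change 1.11, edgeR adjusted p = 7.83e-16). It rose by 0.55 at 24 h and fell by 0.63 at 72 h (edgeR adjusted p = 4.41e-08 and 1.04e-09). Adora2b, a receptor of lower affinity, rose by 1.28 at 4 h and fell by 0.59 at 72 h. Of the nucleoside transporters, Slc29a2 fell by 1.72 at 4 h and by 0.50 at 24 h and rose by 0.97 at 72 h, Slc29a1 fell by 0.67 at 24 h and rose by 0.44 at 72 h, and Slc29a3 fell by 1.13 at 4 h, rose by 0.19 at 24 h and fell by 0.49 at 72 h. Dpp4, whose product CD26 binds Ada at the cell surface in humans, rose by 0.53 at 24 h (edgeR adjusted p = 5.02e-05) and fell by 0.43 at 72 h (edgeR adjusted p = 0.00111).

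Of 5 tested subunits of the kinase that senses AMP, 3 rose and 1 fell at 4 h, and 1 rose and 2 fell at 24 h and again at 72 h, with median log2 fold changes of 0.36, -0.05 and -0.19. Over the alternatives, 0 to 3 rose at 4 h, 1 or 2 rose and 0 to 2 fell at 24 h, and 0 to 2 rose and 0 to 2 fell at 72 h. Prkag1 and Prkaa1 rose by 0.50 and 0.42 at 4 h (edgeR adjusted p = 1.33e-05 and 3.33e-05), and Prkag2 fell by 0.90 (edgeR adjusted p = 5.47e-07). At 24 h Prkab2 rose by 0.97, to 10.1 ± 0.926 CPM under Asn restriction, against 5.14 ± 0.671 CPM in control, while Prkaa1 fell by 0.29 and Prkag2 by 0.31. At 72 h Prkaa1 rose by 0.20, and Prkab1 and Prkag2 fell by 0.21 and 0.35. In bulk RNA such as this, a change in the share of cells that express a gene cannot be told apart from a change in its level per cell, here and for the 7 genes alike.

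**Figure D5:**
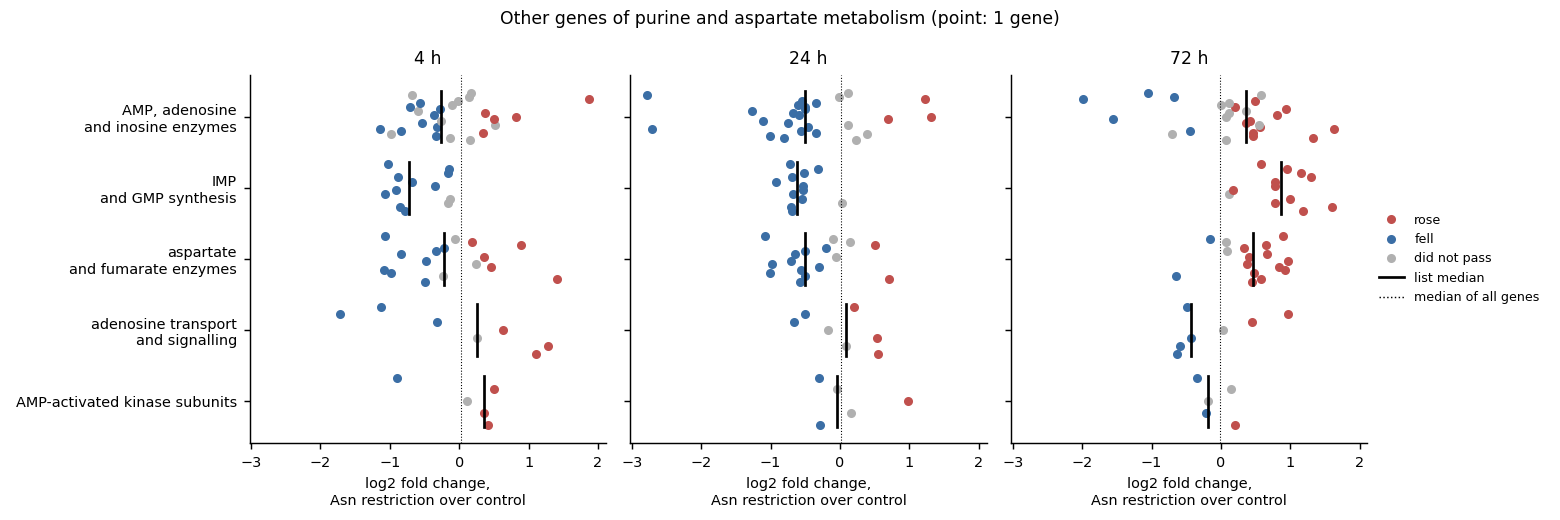
Log2 fold change of Asn restriction over control (x axis) for the tested genes of the 5 lists at 4, 24 and 72 h; each point is 1 gene, red where it rose, blue where it fell and grey where it did not pass, with a black bar at the list median and a dotted line at the median of all genes. The points of IMP and GMP synthesis lie to the left at 4 and 24 h (medians -0.72 and -0.62) and to the right at 72 h (0.87).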

How the data were processed

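RNA was sequenced from 18 libraries, 3 in each of 6 groups. Trim Galore 0.60, STAR 2.7, RSEM 1.31 and the builds hg19 and mm10 are listed in the processing notes of the authors, and how RSEM estimates became whole numbers is not given in the sources used here. The table holds raw counts per gene as deposited by the authors, and 18 columns of their normalized values and the columns of their own comparisons (fold changes and adjusted p-values) were not used. Gene length in base pairs, as deposited, served for levels per kilobase. The 63 ERCC spike-ins, synthetic RNAs added to the samples, took 0.829 to 1.72% of counts and were left out of library sizes.

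Testing was by the quasi-likelihood F-test of edgeR 4.0.16 (R 4.3.3) after filterByExpr and TMM, in 1 fit of the 18 libraries with 6 group means and 12 residual degrees of freedom. Benjamini-Hochberg adjustment ran over 14871 genes (threshold 0.05). Standard errors are the log2 fold change divided by the square root of F. Correlations used log2 CPM with a prior count of 2. Counting error is largest for Ampd3 and Adssl1, and Ada (77 to 391 counts per library) and Pnp (104 to 546) are less precise than Adss, Adsl and Ampd2 (661 or more). Named genes are the 7 genes, up to 2 that rose and 2 that fell by the most per list and time among those with a group mean of at least 10 CPM, and 3 genes of like pattern for each (those for Adssl1 are not reported here). The 7 genes and all lists were chosen with earlier results of these data known. Pairs of libraries within a group all differed by more than sampling noise. The fit was also run on simulated counts with 200 changed genes, drawn from means and dispersions of the fit itself. Such a run cannot show whether p-values hold for libraries that may be technical replicates, and its outcome is not reported here. Alternatives were DESeq2 size factors, no TMM factors, spike-in scaling, other filters on low counts, DESeq2 1.42.0, limma-voom 3.58.1, only the groups compared, each library left out, the replicate number as a block and a threshold of 0.01.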

Additional observations from a re-analysis of the deposited data

Results flagged for a closer look

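The effect of Asn restriction had opposite signs at 2 times, with every restricted library on one side of every control library at each, in 6 of the 7 genes, and in 34.2% of all genes when any 2 times and either direction are allowed. None of these differences between times was tested, because the media contrasts were in view when the genes were chosen. Adss was lower at 24 h and higher at 72 h, and the effects differed by 0.98 on the log2 scale. For Adsl the 72 h effect exceeded the 4 h effect by 1.55 and the 24 h effect by 1.61. For Ampd2 these differences were 1.33 and 1.16, for Pnp 1.83 and 1.57, and for Ada 0.97 and 1.84. Adssl1 went the other way, higher at 4 h and lower at 72 h, with a difference of -3.34. Lower without overlap at 24 h and higher without overlap at 72 h were 14.9% of all genes, and higher at 4 h and lower at 72 h were 9.33%.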

How the results depend on the processing

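For the media contrasts of the 7 genes, no other scaling moved a count except that 5 in place of 4 were lower at 4 h with no TMM factors. The sizes did move. With spike-in scaling the 24 h log2 fold changes of Adss, Adsl, Ampd2, Pnp and Ada were -0.20, -0.22, -0.37, -0.43 and -1.07 (standard errors 0.19 to 0.24). At 72 h they were 0.89, 1.46, 0.88, 1.22 and 0.88 in the same order (standard errors 0.20 to 0.25). The demand of 10 counts in every library removed Adssl1 and Ampd3, which left 0 in place of 1 gene higher at 4 h and 0 in place of 2 lower at 72 h. Without control 24 h replicate 1, 1 gene was higher at 24 h (0 to 1 over the libraries left out). With spike-in scaling, 5 genes rose and 1 fell in restricted cells between 4 and 24 h, none (0) fell between 24 and 72 h, and 1 fell in control cells between 4 and 24 h, where Adss turned to a log2 change of 0.004849 (edgeR adjusted p = 0.989). With the 10-count filter, 1 gene fell between 4 and 24 h in either medium, and between 24 and 72 h 1 rose in restricted and 0 in control cells. With no TMM factors, 1 fell in control cells between 4 and 24 h. In restricted cells Ada then also rose between 4 and 24 h, and Adsl also fell between 24 and 72 h (edgeR adjusted p = 0.00777 and 0.000716). With DESeq2 size factors or its Wald test, 1 rose in restricted cells between 4 and 24 h (1 to 3 over the libraries left out). For the pathway lists, spike-in scaling gave 5 genes that rose at 4 h, 13 that fell at 24 h and 3 that fell at 72 h; Asn restriction 72 h replicate 2 had the lowest spike-in share, 0.829%. The causes were not tested. The replicate block changed no count of the 7 genes that rose or fell over time, with 5 falling and 1 rising in control cells between 24 and 72 h, and 43 pathway genes fell at 24 h under it as without it. Same-numbered libraries did not deviate together (r from -0.05 to 0.01 over 9 pairs, 0 above 0.1), so no pairing by number was seen. With 3 libraries a group this check cannot exclude a paired design, and the authors name a paired t-test for panels from their RNA-seq. Low counts limit Adssl1 at 24 h and Ampd3 at every time.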
